A study of Mus musculus with 12 samples.

Results

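The genes described here encode the subunits of the constitutive proteasome and its regulators. They were the protein-coding mouse genes whose symbol is Psma, Psmb, Psmc, Psmd or Psme followed by a number, without the inducible catalytic subunits Psmb8, Psmb9 and Psmb10. The rule found 40 of the 48526 genes in the count table. It used no measured value, but the members were chosen with earlier results of these data known. Of the 40 genes, 39 had at least 10 counts in at least 3 libraries and were tested among 12421 genes. Psmb11, a subunit of the thymus, had no count in any of the 12 libraries, and Psma8, a subunit of the testis, passed only just, at 0.6 to 1.4 CPM (counts scaled to library size).

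RNA was sequenced from bone marrow-derived macrophages (BMDMs) of 3 female C57Bl/6J mice, for which the labels name no genetic change and no age. Marrow cells were grown with macrophage colony-stimulating factor (m-CSF) to day 7 and were then left untreated or given 100 ng/mL Wnt3a, 100 pg/mL IL-4 or both for 16 hr. Every mouse gave 1 library to each of the 4 conditions. In each mouse the columns labelled Wnt3a and Wnt3a+IL4 share reads, so they were solved for 2 parts that share none. The difference is the Wnt3a column minus the Wnt3a+IL4 column, and the remainder is the Wnt3a+IL4 column minus the difference. Both parts come from Wnt3a-treated cells, but the labels do not say which of them also received IL-4. The 6 parts are called Wnt3a-treated, and the 6 Untreated and IL-4 libraries form the other side.

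The proteasome is the protease that degrades ubiquitin-tagged proteins in the cytosol and nucleus. Its barrel-shaped 20S core has outer rings of alpha subunits (Psma) and inner rings of beta subunits (Psmb), of which Psmb5, Psmb6 and Psmb7 cut the substrate. The 19S particle caps the barrel, with ATPases (Psmc) that unfold the substrate and non-ATPase subunits (Psmd) that bind and remove ubiquitin, whereas the PA28 and PA200 activators (Psme) cap it without need of ubiquitin. In macrophages and other presenting cells, peptides cut by the proteasome feed MHC class I, and interferon exchanges the constitutive catalytic subunits for inducible ones and raises PA28 alpha and beta.

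Promoter windows from RefSeq (GRCm38.p6, 300 bases around the start that RefSeq gives, most of them before it) were at hand for 33 of the 40 genes. Of these, 5 are shown: those of the 3 genes with the largest change under Wnt3a, and those of 2 catalytic subunits for comparison. Psme1 is at chr14:55578244-55578543 (plus strand), Psme2 at chr14:55591052-55591351 (minus strand) and Psmd10 at chrX:140956662-140956961 (minus strand), while Psmb5 is at chr14:54617946-54618245 (minus strand) and Psmb6 at chr11:70525107-70525406 (plus strand). Each reads 5′ to 3′ on its gene's strand, with matches to the antioxidant response element core TGACNNNGC, the NF-Y box CCAAT or the STAT site TTCNNNGAA, on either strand, in capitals.
Psme1: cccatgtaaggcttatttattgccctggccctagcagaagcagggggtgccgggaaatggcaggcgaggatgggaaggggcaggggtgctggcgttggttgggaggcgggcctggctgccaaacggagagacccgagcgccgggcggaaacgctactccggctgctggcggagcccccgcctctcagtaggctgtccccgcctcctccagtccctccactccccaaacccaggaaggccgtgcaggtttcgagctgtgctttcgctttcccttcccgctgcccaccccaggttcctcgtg
Psme2: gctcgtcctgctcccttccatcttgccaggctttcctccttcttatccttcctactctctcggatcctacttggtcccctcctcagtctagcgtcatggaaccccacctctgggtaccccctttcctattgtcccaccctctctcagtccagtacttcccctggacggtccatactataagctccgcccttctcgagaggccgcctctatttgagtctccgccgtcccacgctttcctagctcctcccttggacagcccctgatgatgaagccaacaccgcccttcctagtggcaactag
Psmd10: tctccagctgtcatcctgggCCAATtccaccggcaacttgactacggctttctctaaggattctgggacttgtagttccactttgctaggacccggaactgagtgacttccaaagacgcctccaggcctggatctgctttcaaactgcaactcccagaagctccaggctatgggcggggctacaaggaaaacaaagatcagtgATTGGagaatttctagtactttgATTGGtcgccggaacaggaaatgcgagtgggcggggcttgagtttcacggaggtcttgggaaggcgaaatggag
Psmb5: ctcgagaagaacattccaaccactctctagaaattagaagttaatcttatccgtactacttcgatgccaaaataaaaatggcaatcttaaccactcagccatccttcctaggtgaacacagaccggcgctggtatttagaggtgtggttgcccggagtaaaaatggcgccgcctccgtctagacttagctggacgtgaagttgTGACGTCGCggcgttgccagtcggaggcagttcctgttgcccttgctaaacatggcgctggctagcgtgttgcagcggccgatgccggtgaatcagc
Psmb6: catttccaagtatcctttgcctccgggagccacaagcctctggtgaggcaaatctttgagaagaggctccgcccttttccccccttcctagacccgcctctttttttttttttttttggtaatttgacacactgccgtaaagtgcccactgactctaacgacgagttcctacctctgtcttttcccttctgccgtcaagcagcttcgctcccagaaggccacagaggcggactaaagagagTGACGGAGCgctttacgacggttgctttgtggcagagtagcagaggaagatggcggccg
Psmd10 had 3 NF-Y boxes, and Psmb5 and Psmb6 had 1 antioxidant response element core each. Psme1 and Psme2, whose genes lie near each other on chromosome 14, held none of the 3 motifs in these windows, nor did a window at a second RefSeq start of Psme2. By the GENCODE bounds used for the genes below, all 300 bases of the Psme1 window lie inside the gene, since RefSeq places its start farther downstream, so no sequence upstream of the GENCODE start was searched. In the other 4 windows shown, 40 to 77 bases lie inside the gene. The antioxidant response element core is the motif that NRF1 and NRF2 bind. Among the 33 promoters it was in 6 (18.2%), against 12.5% of the 27025 genes with a promoter of this length. The NF-Y box was in 13 (39.4%) against 37.9%, and the STAT site was in 1 (3.03%) against 8.47%. Median GC content was 57.3% in the 33 promoters and 52.7% over all genes, and the shares were not tested. These matches describe letters only, and no binding was measured.

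The 12 libraries held 13342492 to 17453377 counts, and the 40 genes took 0.334 to 0.399% of them. All 8 macrophage markers were measured, and their summed level was 43979 to 58374 CPM without Wnt3a and 57461 to 68614 CPM with it. Most of that sum was Lyz2, at 34001 to 57327 CPM. Of the 8, 5 were called higher with Wnt3a (Adgre1, Cd14, Fcgr1, Itgam and Lyz2), Csf1r was called lower, and Cd68 and Mertk were not called. Neutrophil markers summed to 39.3 to 60.8 CPM without Wnt3a and 26.2 to 45.6 CPM with it, and 4 of the 5 that were tested fell, while Ly6g was at 0.22 CPM or less. Stromal markers summed to 6.77 to 28.1 and 4.14 to 15.0 CPM, with 1 of 2 tested lower, and those of dividing cells to 50.1 to 104.7 and 56.4 to 170.4 CPM, with 1 of 7 higher. The highest sum for dividing cells was in the difference of mouse 1 and the lowest in Untreated of mouse 2. Lymphocyte markers summed to at most 0.51 CPM, with Ncr1 at 0 in every library, and dendritic markers to at most 2.15 CPM. The part of these cells in the results was not tested. The remainder of mouse 2 lay farthest from the other libraries of its group, at a root mean square difference of 0.371 (log2) against 0.275 to 0.358 in the others, and the proteasome genes sat below their group mean there, by a median of −0.09. In the remainder of mouse 1 they sat above it, by a median of 0.13. Mitochondrial genes took 0.866% of counts in the remainder of mouse 2, 0.898% in Untreated of mouse 1 and 0.817% in IL-4 of mouse 2, and 0.504 to 0.749% in the other 9 libraries.

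In untreated cells, the levels of the subunits per length were far from equal, although assembled particles hold them in fixed numbers. Level per length is given in TPM, which are the counts divided by the length of all annotated exons and scaled to the same sum in each library. Among the 14 alpha and beta subunits of the common core, Psma6 was highest at 263 ± 22.6 TPM (SD, n = 3) and Psma3 lowest at 11.1 ± 1.95 TPM, a ratio of 23.7. The annotated lengths add to this ratio, with 1234 exon bases for Psma6 and 3894 for Psma3. Before division by length, their mean levels were 100.3 and 13.3 CPM. Which annotated exons these cells use was not measured, and this limits all levels per length. In the catalytic positions, Psmb6 reached 233.9 ± 20 TPM, Psmb5 103 ± 5.12 TPM and Psmb7 38.5 ± 2.43 TPM. Psmb2 led the other beta subunits at 228 ± 1.54 TPM and Psmb3 was lowest at 35.2 ± 2.67 TPM. In the order of levels, Psma6 and Psmb6, and Psmb6 and Psmb2, had SD ranges that overlapped, as did Psmb1, Psmb5, Psma7 and Psma1 at 101 to 106 TPM. In the 19S particle, the lid subunit Psmd8 was highest at 311 ± 13.9 TPM and Psmd11, also of the lid, lowest at 28.9 ± 1.41 TPM. The ATPases ran from Psmc6 at 31.2 ± 11.1 TPM to Psmc5 at 214 ± 9.39 TPM, and the other base subunits from Psmd1 at 46.1 ± 2.10 TPM to Psmd2 at 209 ± 5.42 TPM. The base assembly chaperones ran from Psmd9 at 13.4 ± 1.35 TPM to Psmd10 at 70.6 ± 2.91 TPM. Of the activators, PA28 alpha (Psme1) stood at 184 ± 8.98 TPM, PA28 gamma (Psme3) at 99.8 ± 4.18 TPM, PA28 beta (Psme2) at 67.0 ± 3.97 TPM and PA200 (Psme4) at 22.7 ± 7.09 TPM.

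**Figure D1:**
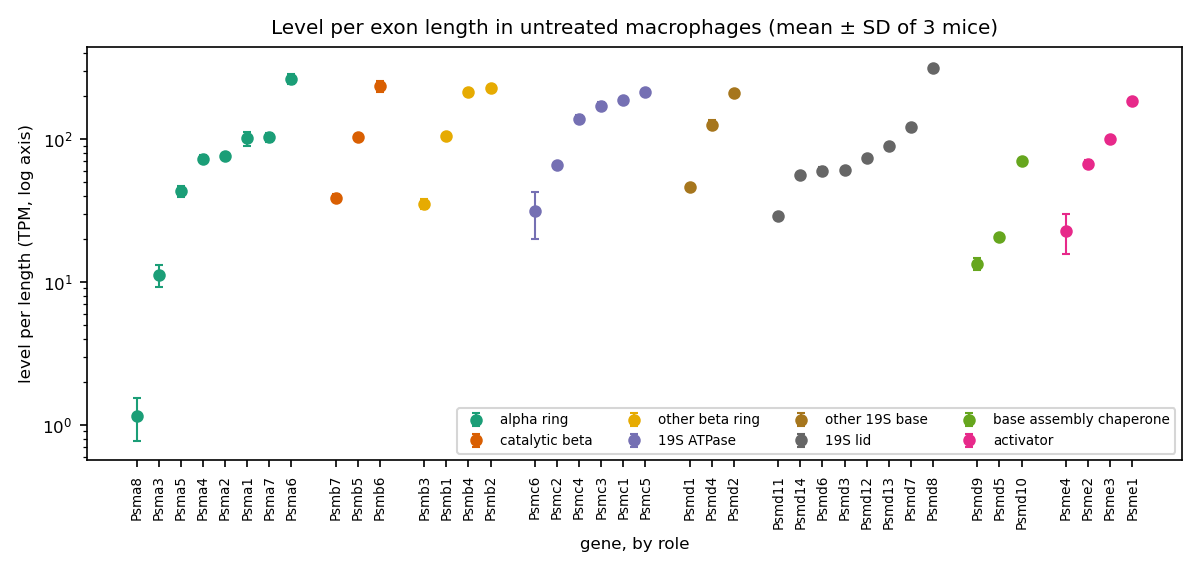
Level per exon length (TPM, log axis) of the 39 tested proteasome genes in untreated BMDMs, as mean ± SD of 3 mice, grouped and coloured by role. Within most roles the lowest and highest gene differ several-fold, from Psma8 at 1.16 to Psmd8 at 311 TPM.

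Copies elsewhere in the genome limit these levels for some genes. In annotated transcripts, 54.1% of the 50-base stretches of Psmb5 also occurred in another gene, as did 49.96% of those of Psma5, 28.3% of Psme2 (shared with its copy Psme2b), 24.95% of Psmd9 and 15.4% of Psma3. In all, 9 of the 40 genes shared at least 10% of their stretches and 15 shared none, among them Psmd10, Psmd8, Psma1 and Psme4. Exons of 4 of the genes overlap another gene over at least 10% of their length. Psmd9 overlaps Gm26745 over 25.5%, Psmb7 overlaps Nek6 over 11.8% and Psmd13 overlaps Sirt3 over 10.1%, each on the other strand, while Psmb5 overlaps Mir686 on its own strand over 12.1%. Whether strand was used in counting is not given in the sources used here.

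With Wnt3a, Psme1, Psme2 and Psmd10 stood out among the proteasome genes, and others rose by a small amount. When the 6 Wnt3a-treated libraries were compared with the 6 others, 14 of the 39 genes rose and 0 fell, where 16.5% of all tested genes rose and 16.1% fell (quasi-likelihood test of edgeR, with an adjusted p under 0.05 after Benjamini-Hochberg over 12421 genes). The median log2 fold change of the proteasome genes was 0.16, against −0.02 over all tested genes, and 37 of 39 were above 0. Psme2, Psmd10 and Psme1 rose by 1.80, 1.79 and 1.43 times, and the other 11 called genes by 1.13 to 1.27 times. Without those 3 genes, 11 of 36 were called and the median stayed at 0.16. In bulk RNA such changes cannot be told apart from a change in the share of cells that express a gene. By mouse, 33, 30 and 36 of the 39 genes were higher with Wnt3a in mouse 1, 2 and 3, by medians of 0.20, 0.05 and 0.25, and 26 (66.7%) were higher in all 3 mice, against 27.2% of all tested genes. The 6 Wnt3a-treated libraries all lay above the 6 others for 5 genes, Psmc2, Psmc5, Psmd10, Psme1 and Psme2, which was true of 8.32% of tested genes. Without the remainder of mouse 2, 22 genes were called higher. The count was 8 without mouse 1, of which Psmd8 was lower, and 5 without mouse 3, which were Psma1, Psmd1, Psmd10, Psme1 and Psme2. With total counts as the scaling, which puts the median of all tested genes at −0.09, 8 genes were higher and Psmd8 was lower. The shares of all tested genes called in these refits are not given here. The changes in count thus cannot be read as particular to the proteasome genes.

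**Figure D2:**
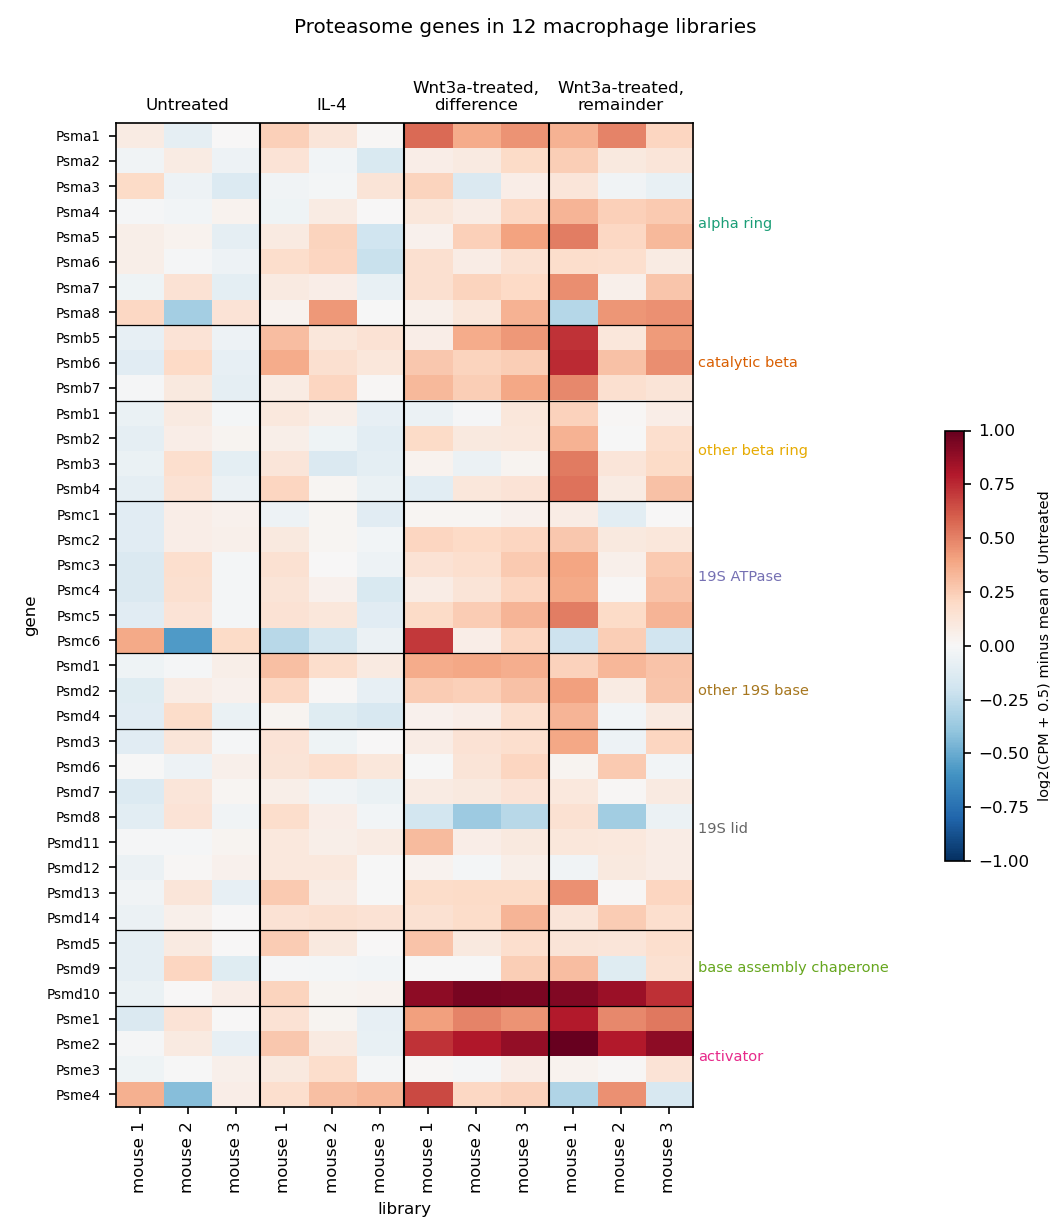
Level of the 39 tested genes in each library, as log2(CPM + 0.5) minus the mean of the 3 Untreated libraries, with genes in the order of their roles and libraries by group and mouse. Psmd10, Psme1 and Psme2 are high in all 6 Wnt3a-treated columns, and the remainder of mouse 1 is higher than that of mouse 2 across most of the beta ring and 19S genes.

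PA28, the activator that interferon induces, was among the genes that rose most. Psme2, its beta subunit (chr14:55587441-55591113, minus strand in GRCm38), was at 36.3, 38.9 and 34.6 CPM in Untreated cells of mouse 1, 2 and 3, and at 44.2, 38.9 and 34.7 CPM with IL-4. In the difference it was at 60.6, 63.9 and 67.5 CPM and in the remainder at 86.6, 63.8 and 68.5 CPM. Every Wnt3a-treated library thus lay above every other library, and the remainder of mouse 1 was the highest. The log2 fold change was 0.85 ± 0.08 (SE; edgeR adjusted p = 2.2e-06), and it was 0.85, 0.71 and 0.96 within mouse 1, 2 and 3. Its copy Psme2b, an intronless gene on chromosome 11, was at 1.74 to 3.83 CPM in the Wnt3a-treated libraries and 2.09 to 2.82 CPM in the others.

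Psme1, the alpha subunit (chr14:55578123-55581529, plus strand), was at 113.5, 138.2 and 126.2 CPM in Untreated cells and at 138.4, 128.1 and 118.5 CPM with IL-4. It was at 167.1, 177.4 and 171.7 CPM in the difference and at 217.7, 175.5 and 180.7 CPM in the remainder. The groups with and without Wnt3a did not overlap here either. Its log2 fold change was 0.51 ± 0.07 (edgeR adjusted p = 4.6e-05), smaller than that of its partner, and the log2 ratio of Psme2 to Psme1 counts ran from −1.47 to −1.33 with Wnt3a and from −1.87 to −1.64 without it. The other activators did not pass the test. Psme3, the nuclear PA28 gamma, was at 88.1 to 102.8 CPM without Wnt3a and 90.3 to 100.1 CPM with it, a log2 fold change of −0.00 ± 0.05 (edgeR adjusted p = 0.99). Psme4 was at 42.3 to 73.0 CPM without Wnt3a and 46.0 to 90.3 CPM with it, a log2 fold change of 0.06 ± 0.15 (edgeR adjusted p = 0.80). Its spread was the wider, with the highest value in the difference of mouse 1 and the lowest in Untreated of mouse 2.

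Psmd10 (gankyrin), a chaperone that helps the ATPase ring assemble and is left out of the finished particle, rose as much as Psme2. The gene (chrX:140948429-140956728, minus strand) was at 30.5, 32.1 and 33.7 CPM in Untreated cells and at 37.5, 32.7 and 32.9 CPM with IL-4. It was at 60.2, 62.5 and 62.1 CPM in the difference and at 61.3, 58.3 and 53.6 CPM in the remainder. The groups were well apart, and the log2 fold change was 0.84 ± 0.06 (edgeR adjusted p = 8.7e-08), with 0.83, 0.89 and 0.78 in the 3 mice. The other chaperones of the base did not pass the test: Psmd5 had a log2 fold change of 0.10 ± 0.06 and Psmd9 of 0.11 ± 0.09. Psmd10 shares no 50-base stretch and overlaps no other gene.

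**Figure D3:**
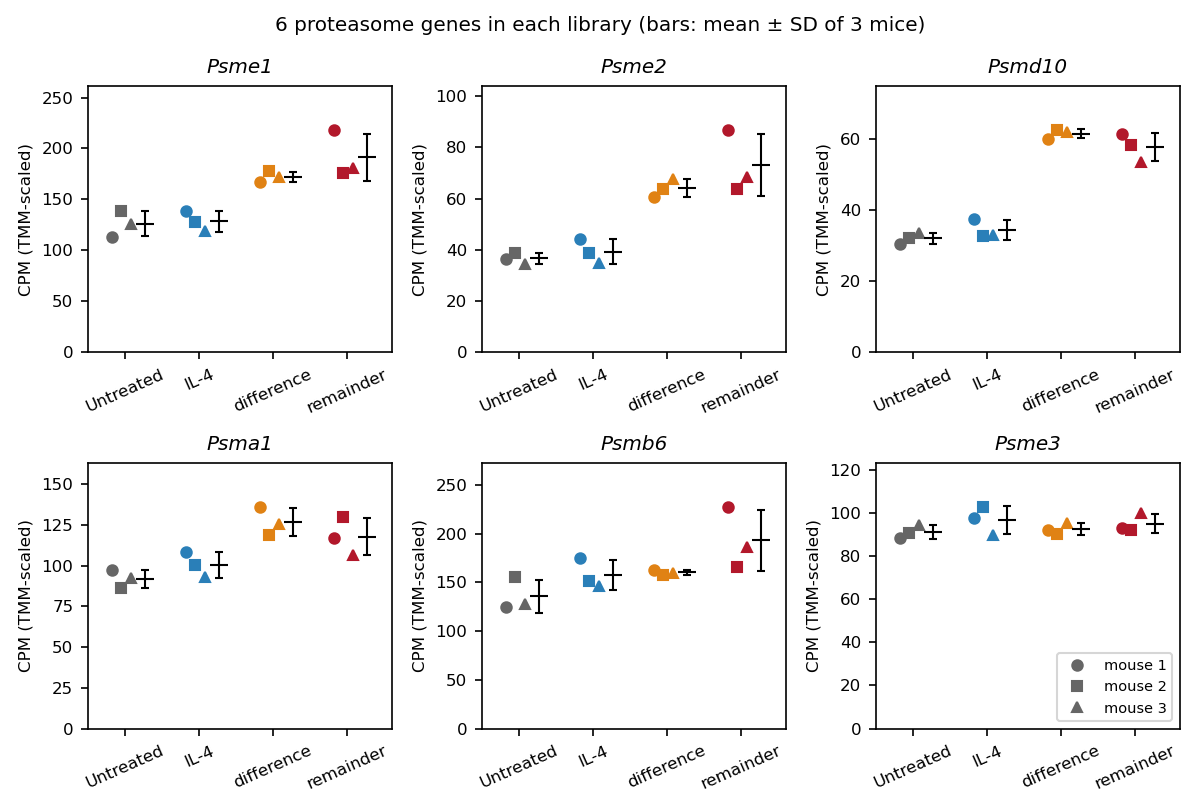
CPM of Psme1, Psme2, Psmd10, Psma1, Psmb6 and Psme3 in each of the 12 libraries, with symbols for the 3 mice and bars for the mean ± SD of each group. Psme1, Psme2 and Psmd10 separate the Wnt3a-treated libraries from the others, Psmb6 and Psma1 overlap between them, and Psme3 is level at 88.1 to 102.8 CPM.

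In the 20S core, 4 of 8 alpha subunits, 2 of 3 catalytic and 0 of 4 other beta subunits were called higher with Wnt3a. Over all tested genes 16.5% were called higher. All 8, 3 and 4 had log2 fold changes above 0, with medians of 0.18, 0.27 and 0.16. The contrast between these groups was not tested. Psma1, of the ring that gates the core, was at 97.4, 86.4 and 92.3 CPM in Untreated cells, 108.5, 100.1 and 92.9 CPM with IL-4, 136.0, 119.0 and 125.8 CPM in the difference and 117.2, 129.7 and 106.6 CPM in the remainder. Only the remainder of mouse 3 fell within the range of the libraries without Wnt3a, and the log2 fold change was 0.35 ± 0.06 (edgeR adjusted p = 7.3e-04). The other alpha subunits called were Psma5, higher by 0.27 ± 0.09, Psma7 by 0.22 ± 0.07 and Psma4 by 0.20 ± 0.05 on the log2 scale. Without mouse 1, without mouse 3 or with total counts as the scaling, Psma1 was the 1 alpha subunit called, and with the mouse as replicate block Psma5 was not called (edgeR adjusted p = 0.060). Psma7 lost its call under 9 of 20 alternatives and Psma4 under 3. Psma6, the most abundant per length, had 0.10 ± 0.07 and Psma3 0.02 ± 0.09, and neither was called. The other beta subunits, Psmb1, Psmb2, Psmb3 and Psmb4, had log2 fold changes of 0.05 to 0.17 and were not called by edgeR, although Psmb2 had an unadjusted p under 0.05 and was called by DESeq2. Summed over the core, the level was 1019.8 to 1185.6 CPM without Wnt3a and 1167.5 to 1416.5 CPM with it, a ratio of 1.14.

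The catalytic subunits had log2 fold changes of 0.24 to 0.28, and 2 of the 3 passed the test. Psmb6, the caspase-like site, was at 124.7, 155.2 and 127.5 CPM in Untreated cells, 174.8, 151.1 and 146.5 CPM with IL-4, 163.0, 157.6 and 159.9 CPM in the difference and 227.4, 165.9 and 186.5 CPM in the remainder. The groups overlapped, since IL-4 of mouse 1 exceeded 4 Wnt3a-treated libraries, and Psmb6 rose by 0.27 ± 0.08 (log2; edgeR adjusted p = 0.022). Psmb7, the trypsin-like site, rose by 0.24 ± 0.07 (log2; edgeR adjusted p = 0.020), from 38.3 to 47.4 CPM without Wnt3a to 44.5 to 57.1 CPM with it. Psmb5, the chymotrypsin-like site, ran from 27.1 to 35.6 CPM without Wnt3a and from 30.0 to 47.7 CPM with it, and at 0.28 ± 0.10 (log2; edgeR adjusted p = 0.053) it was just short of the threshold, while DESeq2 called it. The calls of Psmb6 and Psmb7 were both lost without mouse 1 and without mouse 3, and with total counts as the scaling Psmb6 alone was called.

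Because each inducible catalytic subunit replaces a constitutive one, their ratios were compared within libraries. The log2 ratio of Psmb8 to Psmb5 counts was 1.85 ± 0.02 (SD, n = 3) in Untreated, 1.71 ± 0.02 in IL-4, 2.44 ± 0.12 in the difference and 2.45 ± 0.10 in the remainder. It was thus higher by 0.66 with Wnt3a, with no overlap between the groups (exact permutation of the 12 libraries, two-sided, p = 0.0022 and 0.0032 after adjustment over the 3 ratios). For Psmb9 to Psmb6 the difference was 0.58, with a range of −1.13 to −0.87 against −1.72 to −1.32 (exact permutation p = 0.0022, adjusted 0.0032). For Psmb10 to Psmb7 the log2 ratio was 1.23 ± 0.01 in Untreated and 1.38 ± 0.22 in IL-4. In the difference it was 1.66 ± 0.17 and in the remainder 2.04 ± 0.10. It was thus higher by 0.54 with Wnt3a, and here the groups overlapped (exact permutation p = 0.0065, adjusted 0.0065). The lowest value with Wnt3a was 1.53, in the difference of mouse 1, and the highest without it was 1.60. The remainder libraries all lay above those without Wnt3a. The permutation splits treat libraries of a mouse as separate. Within mice, each ratio was higher with Wnt3a in 3 of 3. Without mouse 2 or mouse 3, the ratio of Psmb10 to Psmb7 no longer passed the test, at 0.46 and 0.54 (exact permutation p = 0.086 and 0.057). Per length, the inducible subunit made up 48.9% of the Psmb8 and Psmb5 pair in Untreated, 46.5% in IL-4, and 59.0 and 59.1% in the difference and the remainder. In the same order the shares were 15.6, 14.3, 20.8 and 20.6% for Psmb9, and 82.5, 83.9, 86.3 and 89.2% for Psmb10. Reads of Psmb5 that match its copies may not have been counted, which would raise the share of Psmb8 in every group. Psmb8 itself shared 11.9% of its stretches with other genes, most with Gm20496, and reads lost there would lower its share. The counts were also divided by unlike annotated lengths, 3381 exon bases for Psmb8 and 899 for Psmb5. The direction of any error in this share is therefore not known. In the fits of single genes, both members of each pair were higher with Wnt3a, the inducible one by the larger log2 fold change: 0.93 for Psmb8 against 0.28 for Psmb5, 0.85 for Psmb9 against 0.27 for Psmb6, and 0.78 for Psmb10 against 0.24 for Psmb7, with Psmb5 short of the threshold.

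**Figure D4:**
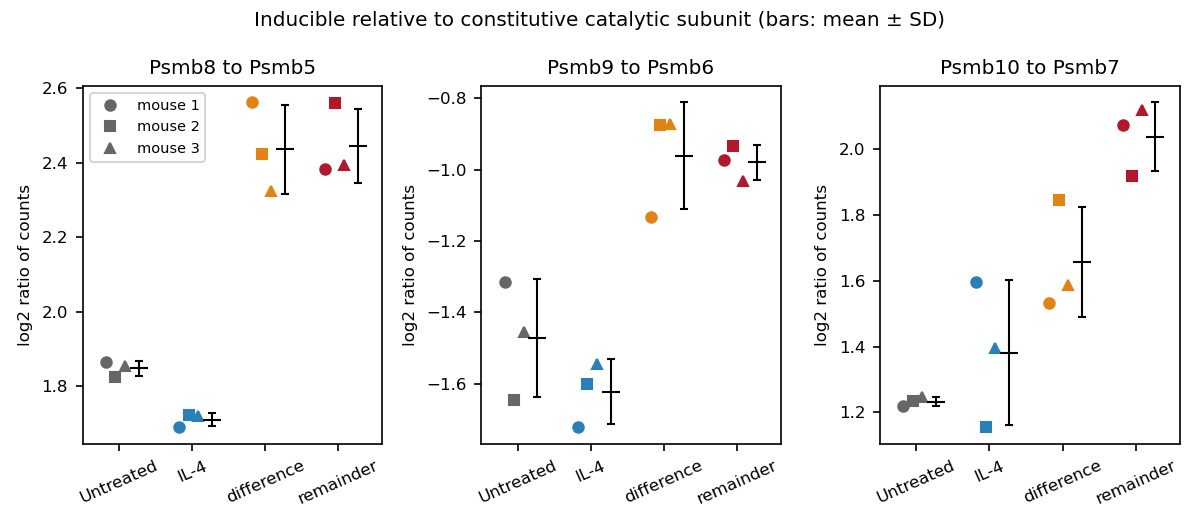
Log2 ratio of counts of each inducible catalytic subunit to the constitutive one it replaces, in each library, with symbols for mice and bars for the mean ± SD of 3. The Wnt3a-treated libraries lie above the others for Psmb8 to Psmb5 and for Psmb9 to Psmb6, while IL-4 of mouse 1 reaches into them for Psmb10 to Psmb7.

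In the 19S particle, 5 of the 9 base genes and 0 of the 8 lid genes were called. Over all tested genes 16.5% rose and 16.1% fell, and the contrast between base and lid was not tested. Log2 fold changes were above 0 for 7 of the 8 lid genes, all 6 ATPases and all 3 other base subunits. Their medians were 0.09, 0.19 and 0.23. Of the 6 ATPases, Psmc5 rose by 0.28 ± 0.07 (log2; edgeR adjusted p = 0.0063), Psmc3 by 0.20 ± 0.07 and Psmc2 by 0.17 ± 0.05. Psmc5 was at 85.4 to 102.3 CPM without Wnt3a and at 105.7 to 132.0 CPM with it. Of the other base subunits, Psmd2, a large scaffold that docks ubiquitin shuttles, rose by 0.24 ± 0.07, and Psmd1, its partner scaffold, by 0.23 ± 0.05 (log2; edgeR adjusted p = 0.0024). Psmd1 was at 100.2, 102.6 and 107.8 CPM in Untreated cells and at 127.9, 116.9 and 110.3 CPM with IL-4, against 121.2 to 135.7 CPM with Wnt3a. The IL-4 values were above the Untreated ones, and that of mouse 1 reached the Wnt3a-treated range. Psmd4, a ubiquitin receptor, had 0.16 ± 0.07 and was not called. In the base, Psmc5, Psmd1 and Psmd2 were called without mouse 1 and Psmd1 alone without mouse 3, and with the mouse as replicate block Psmc3 was not called (edgeR adjusted p = 0.076). With total counts as the scaling, Psmc5 was the 1 ATPase called. Psmc3 lost its call under 12 of 20 alternatives and Psmc2 under 4.

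None of the 8 lid subunits was called by edgeR, though 2 had an unadjusted p under the threshold: Psmd14, the deubiquitinase of the lid, at 0.13 ± 0.05, and Psmd8. DESeq2 called 0 of the 8, and without the remainder of mouse 2 edgeR called Psmd3 and Psmd13 higher. Psmd8 had the lowest log2 fold change of the 39 genes. It was at 274.1, 323.4 and 287.4 CPM in Untreated cells, 332.9, 308.0 and 288.1 CPM with IL-4, 259.0, 229.0 and 242.8 CPM in the difference and 326.8, 230.7 and 282.8 CPM in the remainder. All of the difference libraries were below all of those without Wnt3a, but the remainder of mouse 1 was among the highest. The log2 fold change was −0.21 ± 0.08 (edgeR adjusted p = 0.058). Psmd12 had 0.00 ± 0.05 and Psmd6 0.04 ± 0.06. Summed over the particle, the level was 1714 to 2011 CPM without Wnt3a and 1853 to 2203 CPM with it, a ratio of 1.08.

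**Figure D5:**
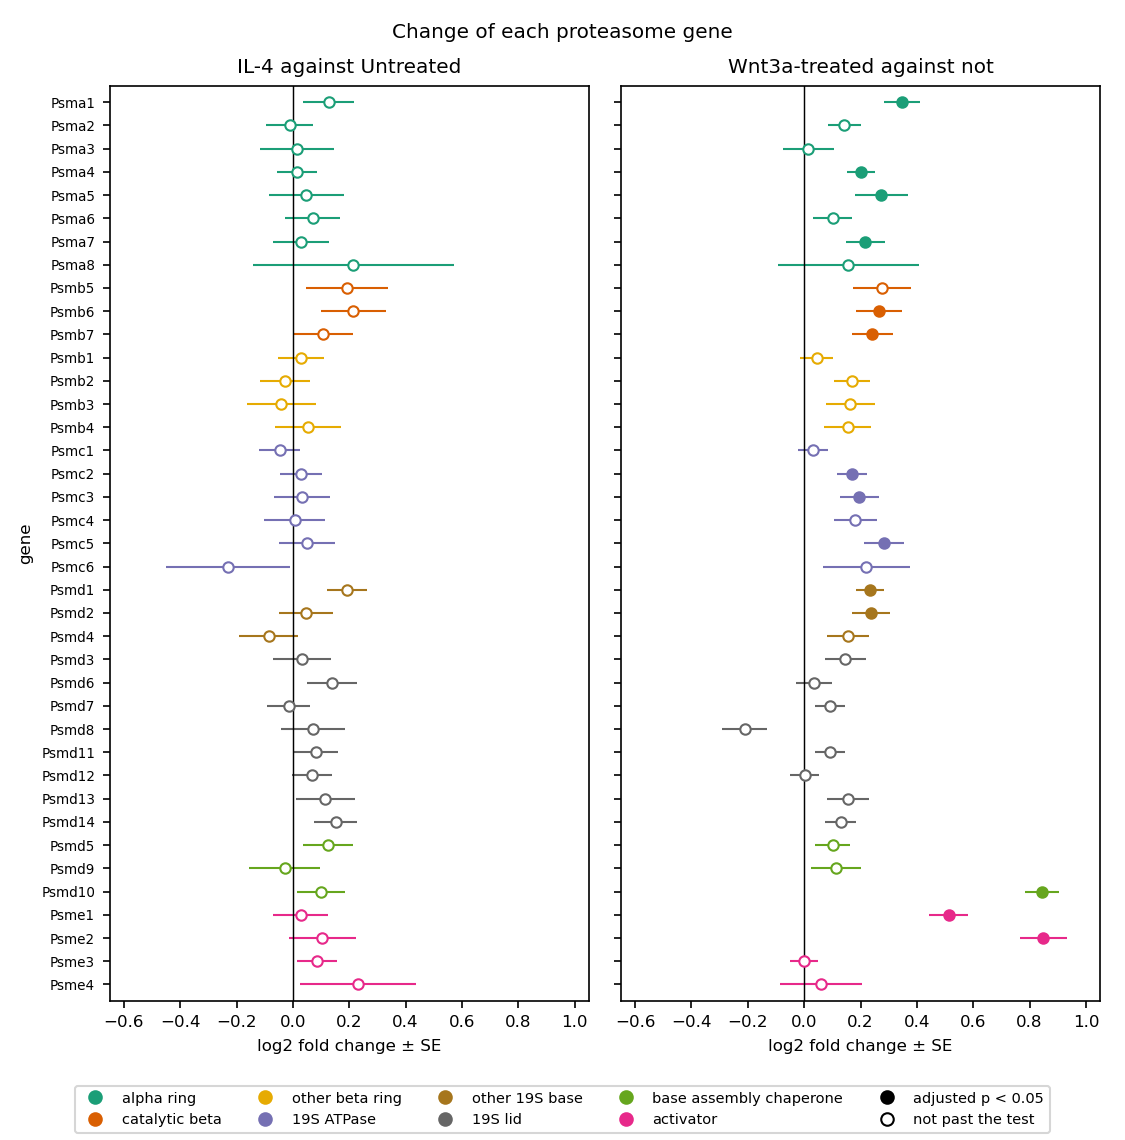
Log2 fold change ± SE of the 39 tested genes for IL-4 against Untreated and for Wnt3a-treated libraries against the others, coloured by role and filled where the edgeR adjusted p was under 0.05. With IL-4 no gene is filled and the values lie between −0.23 and 0.23, and with Wnt3a 14 are filled, all to the right of 0.

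With IL-4 alone, 0 of the 39 genes were called by edgeR, where 3.4% of tested genes were called. At an unadjusted p under 0.05 there was 1, Psmd1, at 0.19 ± 0.07 (log2; edgeR adjusted p = 0.20), and DESeq2 called 0. The median log2 fold change was 0.05, against −0.00 over all tested genes, and the values ran from −0.23 for Psmc6 to 0.23 for Psme4, each about as large as its SE of 0.22 and 0.21. Psme2, Psme1 and Psmd10 had 0.10 ± 0.12, 0.03 ± 0.10 and 0.10 ± 0.09. The catalytic subunits Psmb6, Psmb5 and Psmb7 had 0.21 ± 0.12, 0.19 ± 0.15 and 0.11 ± 0.10. In the pooled fit 31 of the 39 log2 fold changes (79.5%) were above 0, against 49.3% of all tested genes. By mouse the sign was not shared: 34 of 39 genes were higher with IL-4 in mouse 1, 18 in mouse 2 and 17 in mouse 3. Over the 12421 tested genes, the counts in mouse 1, 2 and 3 were 6515, 6025 and 6227.

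Each part of the Wnt3a-treated cells was also set against Untreated, the same 3 libraries serving both comparisons. In the difference 7 genes rose, where 11.8% of tested genes were called higher, and 0 fell, where 11.4% were called lower. They were Psmd10 (0.94 ± 0.09 on the log2 scale), Psme2 (0.81 ± 0.12), Psma1 (0.46 ± 0.09), Psme1 (0.45 ± 0.10), Psmd1 (0.38 ± 0.07), Psmb7 (0.32 ± 0.10) and Psmd14 (0.23 ± 0.08). In the remainder 9 rose, where 13.6% were called higher, and 0 fell, where 11.7% were called lower. They were Psme2 (1.00 ± 0.12), Psmd10 (0.85 ± 0.09), Psme1 (0.60 ± 0.10), Psmb6 (0.51 ± 0.12), Psmb5 (0.45 ± 0.14), Psma1 (0.36 ± 0.09), Psmc5 (0.35 ± 0.10), Psma4 (0.28 ± 0.07) and Psmd1 (0.28 ± 0.07). With the mouse as replicate block, Psmb7 and Psmd14 were not called in the difference (edgeR adjusted p = 0.051 and 0.068) and Psmb5 was not called in the remainder (edgeR adjusted p = 0.065). Psmd14 lost its call under 16 of 22 alternatives, Psmb5 under 11 and Psmb7 under 9. The median over the 39 genes was 0.19 in both, against −0.01 and −0.02 over all tested genes. The remainder count rested on single libraries, with 20 genes called without the remainder of mouse 2 and also without the whole of mouse 2 (18 higher and 2 lower), 14 without Untreated of mouse 2 and 3 without mouse 3. The difference count was 4 without mouse 3 and 11 without the remainder of mouse 2, 1 of them lower. Here too the shares of all tested genes called in the refits are not given.

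Between the parts, no proteasome gene passed the test. In the remainder against the difference edgeR called 0 of 39, where 5.25% of tested genes were called. There were 3 at an unadjusted p under 0.05 (Psmb3 at 0.29 ± 0.12, Psmb6 at 0.27 ± 0.12 and Psmb4 at 0.27 ± 0.12, all beta subunits and all higher in the remainder), and DESeq2 called 0. Without the remainder of mouse 2, 3 genes were called higher in the remainder, and without mouse 2 Psmc6 and Psme4 were called lower, at −0.68 and −0.69. Psmc6, an ATPase, was at 41.9, 21.5 and 36.7 CPM in Untreated cells, 26.5, 28.4 and 30.8 CPM with IL-4, 52.8, 33.7 and 37.4 CPM in the difference and 27.8, 38.2 and 28.1 CPM in the remainder. Like Psme4, it was highest in the difference of mouse 1 and lowest in Untreated of mouse 2. The same libraries were the extremes for Psma1 and for the companion gene Ecpas (116.9 and 61.1 CPM). They were also the extremes for the dividing-cell markers Mki67 (49.0 and 8.17 CPM), Top2a (58.8 and 11.7 CPM) and Ccna2 (15.7 and 2.96 CPM). The other dividing-cell markers did not share both extremes. Ccnb1 was highest in the difference of mouse 1 but lowest in IL-4 of mouse 2. Cdk1, Aurka and Plk1 were highest in the remainder of mouse 1. Cdk1 was lowest in the difference of mouse 2, and Aurka and Plk1 in the remainder of mouse 2. The part of dividing cells in these values was not tested. In Untreated cells the SD of Psmc6 was 10.6 CPM for a mean of 33.4 CPM, against 1.6 CPM for a mean of 32.1 CPM in Psmd10.

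Whether IL-4 acted differently with Wnt3a was tested under both assignments of the parts. With the remainder as Wnt3a+IL-4, edgeR called 0 of the 39 genes, where 0.105% of tested genes were called. With the difference as Wnt3a+IL-4 it called 0 as well, where 7.33% were called. In each case 1 gene had an unadjusted p under 0.05, Psmd1 at −0.29 ± 0.10 in the first and Psmb6 at −0.49 ± 0.16 in the second, and DESeq2 called 0 in both. The interaction of Psme2 was 0.09 ± 0.17 or −0.29 ± 0.17, that of Psme1 0.12 ± 0.14 or −0.18 ± 0.14 and that of Psmd10 −0.19 ± 0.12 or −0.01 ± 0.12 (log2), which does not show that it was 0.

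Of 34 companion genes of the pathway, all of them tested, 7 rose with Wnt3a (20.6%) and 6 fell (17.6%), shares near the 16.5 and 16.1% of all tested genes. All 3 inducible catalytic subunits rose: Psmb8 by 0.93 ± 0.07 (log2; edgeR adjusted p = 2.5e-07), Psmb9 by 0.85 ± 0.07 and Psmb10 by 0.78 ± 0.08. Psmb8 was at 98.6, 112.0 and 100.0 CPM in Untreated cells, 114.8, 102.6 and 104.8 CPM with IL-4, 177.5, 199.8 and 194.9 CPM in the difference and 248.7, 183.4 and 203.3 CPM in the remainder, so that the sides did not overlap. The log2 fold changes of these 3 genes lay close to those of Psme2 and Psmd10 and above those of the other 37 tested subunits. None of the 5 core assembly factors was called by edgeR, 0 had an unadjusted p under 0.05, and DESeq2 called 0. Pomp, which matures the catalytic subunits, was at 102.6 to 123.6 CPM without Wnt3a and 100.2 to 150.5 CPM with it.

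Of the regulators of proteasome gene transcription, 1 rose and 3 fell in the pooled comparison, and the parts differed in which of them were called. Nfe2l1 (NRF1), the factor that drives proteasome genes when the enzyme is short, rose by 0.28 ± 0.06 (log2; edgeR adjusted p = 0.0034). The genes that process its protein fell, namely Ngly1, which removes its sugars, by 0.27 ± 0.09 (log2) and Ddi2, which cuts it, by 0.25 ± 0.07 (log2). With the mouse as replicate block Ngly1 was not called (edgeR adjusted p = 0.066). Nfe2l2 (NRF2), of the antioxidant response, fell by 0.22 ± 0.06 (log2; edgeR adjusted p = 0.015), and it was lower in the remainder than in the difference by −0.36 ± 0.09 (log2; edgeR adjusted p = 0.032, or 0.065 with the mouse as replicate block). Against Untreated, Ngly1, Ddi2 and Nfe2l2 were called in the remainder, at −0.54 ± 0.13, −0.37 ± 0.09 and −0.46 ± 0.09, and not in the difference, at −0.10 ± 0.13, −0.11 ± 0.09 and −0.10 ± 0.09 (log2). Nfe2l1 was called in the difference at 0.37 ± 0.09 and not in the remainder at 0.20 ± 0.09 (log2). Set directly against each other, the parts differed past the threshold for Nfe2l2 alone of these 4 genes. Nfe2l2 was at 452.4, 464.3 and 496.3 CPM in Untreated cells, 481.1, 396.3 and 432.2 CPM with IL-4, 456.4, 424.7 and 440.1 CPM in the difference and 312.0, 377.6 and 339.1 CPM in the remainder. The 3 remainder libraries lay below all 9 others. With the difference taken as Wnt3a+IL-4, the interaction was called for Nfe2l2 at 0.47 ± 0.13 and for Psmb10 at −0.59 ± 0.17 (log2; edgeR adjusted p = 0.036 and 0.048, or 0.070 and 0.071 with the mouse as replicate block), and with the other assignment for neither.

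Among genes that act beside the proteasome, the polyubiquitin gene Ubb rose by 0.40 ± 0.07, the ubiquitin-activating enzyme Uba1 by 0.25 ± 0.07 and the unfoldase Vcp by 0.17 ± 0.06 (log2). Zfand5, which binds the particle and stimulates it, fell by 0.58 ± 0.09 (log2; edgeR adjusted p = 1.4e-04), from 43.0 to 53.9 CPM without Wnt3a to 27.8 to 39.1 CPM with it, with no overlap. Akirin2, which brings proteasomes into the nucleus, fell by 0.23 ± 0.07 (log2) and the shuttle Ubqln2 by 0.20 ± 0.06 (log2). Against Untreated, Ubb and Zfand5 were called in both parts, Uba1 and Ubqln2 in the remainder alone, and Vcp and Akirin2 in neither. With the mouse as replicate block Vcp was not called in the pooled comparison, nor Uba1 and Ubqln2 in the remainder (edgeR adjusted p = 0.056, 0.052 and 0.056). The inhibitor Psmf1 had 0.17 ± 0.07 (log2) and was not called. Without mouse 3, 5 of the companion genes were called higher and Zfand5 alone was called lower.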

How the data were processed

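RNA-seq of 12 BMDM samples from 3 mice was used. The values are raw counts per gene as deposited. The authors had cleaned the single-end reads with trimmomatic 0.36, mapped them with STAR 2.6.0 on mm10 and assigned them to genes with HTSeq 0.11.1. Their methods name UCSC genes, while the table holds Ensembl IDs. The annotation release and the settings for strand and for reads with several matches are not given in the sources used here. The table held 0 further columns and 0 entries that name no gene.

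In each mouse, 0 of 48526 genes had a negative difference or remainder. The members and lists were chosen with earlier results of these data known. All 12 libraries entered a single fit with edgeR 4.0.16 (R 4.3.3, TMM scaling, quasi-likelihood test, no term for the mouse). The authors' methods give DESeq2 with default parameters and state no term for the mouse. A gene was tested if 3 or more libraries had 10 or more counts, at a Benjamini-Hochberg adjusted p under 0.05 over 12421 genes. The procedure was tested on simulated counts first. CPM are TMM-scaled. Differences by mouse used log2(CPM + 0.5). Genes were placed on GRCm38 with GENCODE, and per-length levels divide counts by all annotated exon bases.

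Named throughout were the catalytic subunits and activators, the called members with the 4 largest and 4 smallest log2 fold changes in each comparison, and the extremes per length in each role. Members named beyond that rule were chosen after their values were seen. The mouse numbers in the labels pair the samples, since 1 animal gave all 4. Deviations of same-mouse libraries from their group means correlated between −0.42 and 0.45 over the tested genes, and 6 of 18 pairs were above 0.1. Alternatives were DESeq2 1.42.0, scaling by DESeq2's size factors or by total counts, a filter of 1 count in any library, the mouse as replicate block, only the groups compared, the deposited columns, and each mouse or library left out. Some genes of the fixed lists are not reported here by name.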

Additional observations from a re-analysis of the deposited data

How the results depend on the processing

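The count of called genes moved with the samples more than with the tool. How far the count over all tested genes moved under each alternative is not given here. Leaving out a mouse or a library gave 4 to 11 calls in the difference against Untreated (7 with all), 3 to 20 in the remainder against Untreated (9), 0 to 3 in the remainder against the difference (0), 5 to 22 for Wnt3a-treated against not (14), 0 to 2 for the interaction with the difference as Wnt3a+IL-4 (0), and log2 ratios of 0.465 to 0.611 for Psmb10 to Psmb7. In the 3 comparisons with calls, the lowest counts came without mouse 3, which leaves 8 libraries, and the highest without the remainder of mouse 2 (in the remainder against Untreated, also without mouse 2). With all genes of at least 1 count, 2 genes were called in the remainder against the difference (Psmc6 and Psme4, lower), 1 in the interaction with the remainder as Wnt3a+IL-4 (Psme4) and 2 in the other interaction (Psmb6 and Psmc6). With the deposited columns, whose Wnt3a-containing columns share reads, both comparisons with Untreated gave 14 calls. Total counts as the scaling gave 9 for Wnt3a-treated against not, and moved the median of all tested genes from −0.02 to −0.13 in the remainder against Untreated, where the median of the proteasome genes was then 0.09. It gave 5 higher and 1 lower in the difference. DESeq2 gave 9, 10 and 16 calls in the difference, the remainder and Wnt3a-treated against not. With the mouse as replicate block these counts were 5, 8 and 12, and in the other comparisons the block also gave 0. No other call of a proteasome gene was changed by the block than those of Psma5, Psmc3, Psmb7, Psmd14 and Psmb5. In the remainder against Untreated, Psme4 (0.00 with all) ran from −0.44 without mouse 2 (edgeR adjusted p = 0.039) to 0.34 without mouse 1, and the cause was not tested. The calls of Psme1, Psme2, Psmd10 and Psma1 for Wnt3a-treated against not were kept under all 20 alternatives.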
